A study of Homo sapiens with 4 samples.

Results

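The integrated stress response was followed in LNCaP cells through 10 genes: ATF3, ATF4, DDIT3, TRIB3, CHAC1, SESN2, DDIT4, PPP1R15A, ASNS and CEBPB. They were chosen by their place in the ATF4 pathway, and selected on sight of their expression in these same 4 libraries, so their levels and changes are given as a description with no test. All 10 were found among the 19801 genes of the deposited tables, and all 10 were among the 14626 genes that reached an RPKM of 1 in 1 library or more. RPKM is a read count divided by exon length and by the total of mapped reads, so it can be compared between genes.

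LNCaP is a line of human prostate cancer cells that responds to androgen. The cells were transfected for 24 h with an empty vector or with a plasmid labelled AR1-651, and then kept for 12 h with or without ailanthone (AIL), a natural compound from Ailanthus altissima. The 4 conditions were AR1-651, AR1-651 + AIL, empty vector and empty vector + AIL, with 1 library each. No difference between them can be set against a spread between replicates, and none is tested. All 4 came from one cell line by transient transfection, and the concentration of AIL is not in the labels.

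KLK3, the androgen-regulated gene for prostate-specific antigen, stood at 287 RPKM with empty vector, 303 with empty vector + AIL, 1442 in the library labelled AR1-651 and 582 in the one labelled AR1-651 + AIL, so it was highest in the library labelled AR1-651. The 7 luminal prostate markers ranged from 11.6 to 1442 RPKM over the 4 libraries. The 6 markers of other cell types that were found lay between 0.0 and 8.49 RPKM. The RPKM values of low genes fall on steps of 1 read, and from these steps the libraries were found to be scaled to about 5010000, 4730000, 5410000 and 5590000 reads in the order above.

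The integrated stress response is the pathway by which a cell under stress slows protein synthesis and rewrites its transcription. Kinases that sense unfolded protein, lack of amino acids, viral RNA or lack of haem phosphorylate the initiation factor eIF2alpha, most mRNAs are then translated less, and a few, ATF4 among them, are translated more. ATF4 is a transcription factor that switches on genes for amino acid supply and further regulators, among them ATF3, DDIT3 (CHOP) and PPP1R15A (GADD34), whose product helps to remove the phosphate from eIF2alpha.

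ATF4 and its partners bind DNA at composite C/EBP-ATF elements, and the windows around the annotated starts of the 10 genes were searched for their core, TGATGNAA, for the cyclic AMP response element TGACGTCA, and for the C/EBP palindrome TTGCGCAA, each on both strands. A window ran from 250 bases before a start to 50 bases after it. Of 17 RefSeq windows (GRCh38.p14), 4 held a match, 1 each in ATF3, ASNS, CHAC1 and PPP1R15A, and the other 6 members had none. Of 35116 such windows in the genome, 3.62% held the composite core, 1.85% the cyclic AMP response element and 0.151% the palindrome. The 4 windows with a match are shown. The match is the composite core in ATF3, CHAC1 and ASNS, and the cyclic AMP response element in PPP1R15A. The composite core lies in front of an annotated start of ATF3, which was among the highest rises with AIL. It lies equally in front of annotated starts of CHAC1 and ASNS, which were lower with AIL. The windows read 5′ to 3′ in the direction of transcription, with the match in capitals.
ATF3, chr1:212565157-212565456, plus strand: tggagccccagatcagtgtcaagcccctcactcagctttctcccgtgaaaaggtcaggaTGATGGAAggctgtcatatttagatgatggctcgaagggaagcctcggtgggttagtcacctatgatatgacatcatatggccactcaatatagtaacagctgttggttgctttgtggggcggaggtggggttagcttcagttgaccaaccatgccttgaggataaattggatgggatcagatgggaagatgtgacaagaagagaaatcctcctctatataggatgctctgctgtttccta
CHAC1, chr15:40953221-40953520, plus strand: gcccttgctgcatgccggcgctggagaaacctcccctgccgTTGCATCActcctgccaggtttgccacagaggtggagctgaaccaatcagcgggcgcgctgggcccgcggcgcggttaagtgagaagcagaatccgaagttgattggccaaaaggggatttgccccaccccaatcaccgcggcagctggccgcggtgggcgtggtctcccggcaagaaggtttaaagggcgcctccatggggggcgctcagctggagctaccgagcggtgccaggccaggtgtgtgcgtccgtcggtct
ASNS, chr7:97872359-97872658, minus strand: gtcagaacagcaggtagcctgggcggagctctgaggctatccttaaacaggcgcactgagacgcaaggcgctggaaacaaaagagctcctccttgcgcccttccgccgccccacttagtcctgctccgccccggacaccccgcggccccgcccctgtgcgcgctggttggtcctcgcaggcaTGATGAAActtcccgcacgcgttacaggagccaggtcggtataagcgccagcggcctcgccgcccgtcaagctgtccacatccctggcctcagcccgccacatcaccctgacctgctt
PPP1R15A, chr19:48872171-48872470, plus strand: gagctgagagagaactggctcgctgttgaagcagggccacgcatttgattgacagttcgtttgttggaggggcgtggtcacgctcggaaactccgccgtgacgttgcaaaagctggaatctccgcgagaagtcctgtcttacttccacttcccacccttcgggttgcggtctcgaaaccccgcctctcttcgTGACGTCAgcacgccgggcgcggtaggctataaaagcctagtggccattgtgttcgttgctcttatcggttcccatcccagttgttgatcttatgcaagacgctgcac
The match lay 191 bases upstream of the start in ATF3 (TGATGGAA), 68 bases upstream in ASNS (TGATGAAA), 209 bases upstream in CHAC1, where it was on the opposite strand and reads TTGCATCA, and 58 bases upstream in PPP1R15A (TGACGTCA). The other window of ATF3 (chr1:212614768-212615067) and that of ASNS (chr7:97872116-97872415) held no match. Which start these cells use was not measured. A match is a description of the letters only, and binding was not measured.

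To see how AIL moved these genes, each library with AIL was compared with the library of the same plasmid without it. With empty vector, 5 of the 10 members were at least 2-fold higher with AIL (ATF3, ATF4, DDIT3, SESN2 and PPP1R15A) and 2 were lower by that much (CHAC1 and DDIT4), while 9.53% of all 14626 genes were higher and 9.03% lower by the same threshold. The libraries labelled AR1-651 gave 4 higher members (the same genes without DDIT3) and the same 2 lower members, against 14.9% and 5.74% of all genes. Changes are differences of log2(RPKM + 1), a scale that shrinks the changes of genes at low RPKM, and 2-fold means 2-fold on that scale. The median log2 change of the members was 0.96 with empty vector and 0.06 in the libraries labelled AR1-651, beside -0.02 and 0.13 for all genes, and the second of the members' medians turned to -0.15 with median-ratio scaling. Of all genes, 5.67% were at least 2-fold higher with AIL in both comparisons and 2.93% at least 2-fold lower in both.

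**Figure D1:**
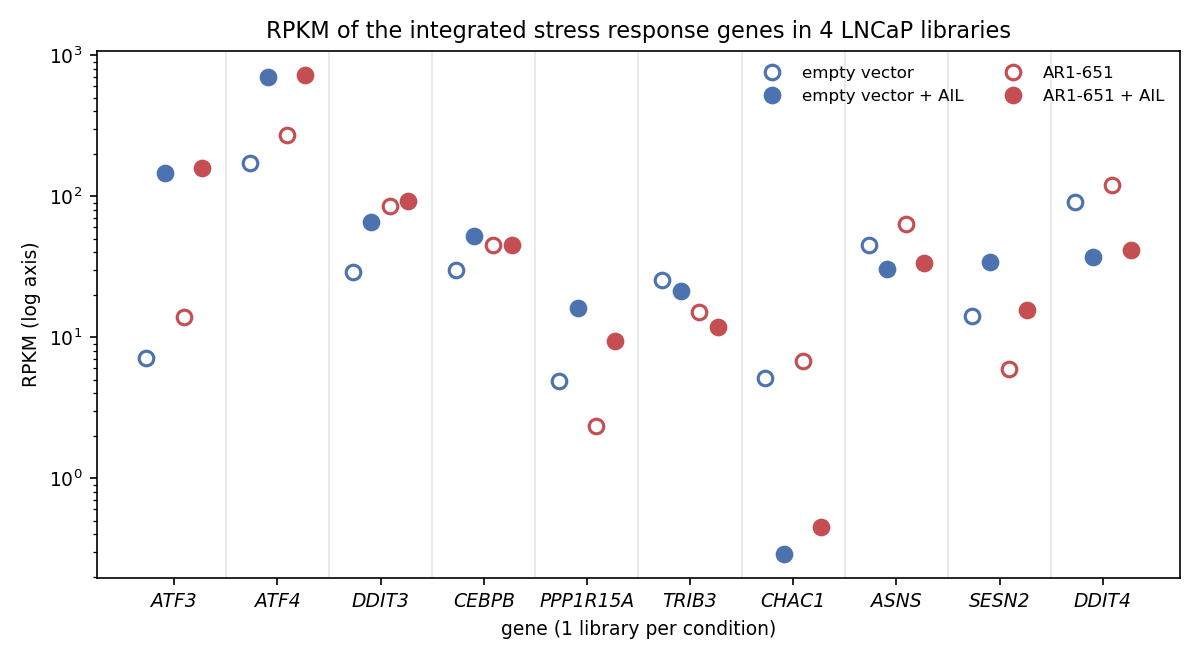
RPKM of the 10 members (log axis) in each of the 4 libraries, 1 point per library, open without AIL and filled with AIL, blue for empty vector and red for the libraries labelled AR1-651. ATF3 goes from 7.08 to 145 RPKM with empty vector, while CHAC1 goes from 5.14 to 0.29.

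ATF3, a stress-induced transcription factor of the ATF/CREB family, had 7.08 RPKM with empty vector, 145 with empty vector + AIL, 13.8 in the library labelled AR1-651 and 159.5 in the one labelled AR1-651 + AIL. Both libraries with AIL were far above both without it. The ratio of RPKM was 20.5 with empty vector (95% counting interval 16.0 to 26.5) and 11.6 in the libraries labelled AR1-651 (9.74 to 13.8). Its log2 changes of 4.17 and 3.44 were the rank 6 and rank 13 rises among 14626 genes. The counting intervals here and below are exact conditional intervals from approximate read numbers, about 68, 1314, 143 and 1709 for ATF3, and cover counting error only. They leave out variation between cultures, for which there is no estimate.

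ATF4, the central activator of the pathway, had 171 RPKM with empty vector, 703 with empty vector + AIL, 272 in the library labelled AR1-651 and 727 in the one labelled AR1-651 + AIL. It was the most abundant member in every library, and it was highest in the 2 libraries with AIL, which lay close together. The RPKM ratio with AIL was 4.11 (counting interval 3.88 to 4.36) with empty vector and 2.68 (2.56 to 2.8) in the libraries labelled AR1-651. ATF4 has processed pseudogenes, and how reads that fit several places were counted is not given in the sources used here, so its level is less certain than those of the other members.

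DDIT3 encodes CHOP, a C/EBP family factor that acts downstream of ATF4. It had 29.1 RPKM with empty vector, 65.1 with empty vector + AIL, 84.8 in the library labelled AR1-651 and 92.8 in the one labelled AR1-651 + AIL. Empty vector alone was low, and the other 3 libraries were high. The RPKM ratio with AIL was 2.23 (counting interval 1.83 to 2.74) with empty vector but 1.09 (0.964 to 1.25) in the libraries labelled AR1-651, where the small log2 change of 0.13 turned to -0.09 with median-ratio scaling. The log2 change of 1.13 with empty vector was 0.99, just below 2-fold, once the dependence on transcript length and GC content was removed.

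CEBPB, a C/EBP factor that pairs with ATF4, showed the same outline at a smaller size. Its RPKM was 30.2 with empty vector, 52.5 with empty vector + AIL, 44.9 in the library labelled AR1-651 and 44.8 in the one labelled AR1-651 + AIL. Empty vector was again the lowest library, and the pair labelled AR1-651 could not be told apart (RPKM ratio 0.999, counting interval 0.878 to 1.13), with log2 changes from -0.22 to 0.12 under the alternatives. DDIT3 and CEBPB were at a distance of 0.88, measured over the 4 libraries on log2(RPKM + 1) after centring each gene on its mean.

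PPP1R15A, the stress-induced partner of the eIF2alpha phosphatase, had 4.91 RPKM with empty vector, 16.2 with empty vector + AIL, 2.33 in the library labelled AR1-651 and 9.32 in the one labelled AR1-651 + AIL. Within each plasmid the library with AIL was the higher, and within each treatment the library with empty vector was the higher. The RPKM ratio with AIL was 3.3 (counting interval 2.46 to 4.54) with empty vector and 4.0 (2.67 to 6.17) in the libraries labelled AR1-651.

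SESN2, a stress-induced inhibitor of mTORC1 that senses leucine, followed the pattern of PPP1R15A more closely than any other pair of members followed each other (distance 0.467). It had 14.1 RPKM with empty vector, 34.2 with empty vector + AIL, 5.97 in the library labelled AR1-651 and 15.7 in the one labelled AR1-651 + AIL. Again AIL went with higher values within each plasmid, and empty vector with higher values within each treatment. The RPKM ratio with AIL was 2.43 (counting interval 2.08 to 2.83) with empty vector and 2.63 (2.12 to 3.31) in the libraries labelled AR1-651. SESN3, a sestrin of the same family that was singled out after its values were seen, had 48.2, 20.3, 16.1 and 35.7 RPKM in the same order, lower with AIL beside empty vector and higher with AIL beside the AR1-651 label.

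DDIT4 (REDD1), another stress-induced inhibitor of mTORC1, went the other way. It had 90.6 RPKM with empty vector, 37.2 with empty vector + AIL, 120.3 in the library labelled AR1-651 and 41.3 in the one labelled AR1-651 + AIL. Both libraries with AIL were below both without it. The level without AIL was 2.44 times the level with AIL for empty vector (counting interval 2.14 to 2.79) and 2.91 times for the AR1-651 label (2.59 to 3.27).

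CHAC1, an enzyme that breaks down glutathione and a known target of ATF4, was the member with the widest decrease. It had 5.14 RPKM with empty vector, 0.29 with empty vector + AIL, 6.8 in the library labelled AR1-651 and 0.45 in the one labelled AR1-651 + AIL. The values with AIL were near the floor of the measurement, at about 2.0 and 3.6 reads against about 37 and 52 reads without AIL. The RPKM ratio with AIL was 0.0564 (counting interval 0.00668 to 0.222) with empty vector and 0.0662 (0.0195 to 0.202) in the libraries labelled AR1-651, so the size of the fall is known only roughly. Its log2 changes of -2.25 and -2.43 were the rank 99 and rank 63 falls of 14626 genes, and without the added 1 RPKM they were -4.15 and -3.92. CHAC2, its relative with the same enzyme activity, moved the opposite way, with 7.77, 30.2, 9.94 and 45.4 RPKM in the same order.

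ASNS, asparagine synthetase and a classical ATF4 target, had 45.3 RPKM with empty vector, 30.2 with empty vector + AIL, 63.7 in the library labelled AR1-651 and 33.7 in the one labelled AR1-651 + AIL. As with DDIT4, the libraries with AIL were the lower ones, by less. The level without AIL was 1.5 times (counting interval 1.29 to 1.75) and 1.89 times (1.66 to 2.15) the level with AIL. In the libraries labelled AR1-651 its log2 change of -0.90 passed 2-fold with median-ratio scaling (-1.12) and with the trend with length and GC content removed (-1.33).

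TRIB3, a pseudokinase that ATF4 and CHOP induce and that restrains ATF4, had 25.3 RPKM with empty vector, 21.4 with empty vector + AIL, 15.2 in the library labelled AR1-651 and 11.7 in the one labelled AR1-651 + AIL. It was lower with AIL in each pair, but by little. The RPKM ratio with AIL was 0.844 with empty vector, with a counting interval of 0.701 to 1.02 that includes 1, and 0.773 (0.607 to 0.973) in the libraries labelled AR1-651. The 4 levels were thus ordered by plasmid first, in contrast to ATF3, whose levels were ordered by AIL first.

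**Figure D2:**
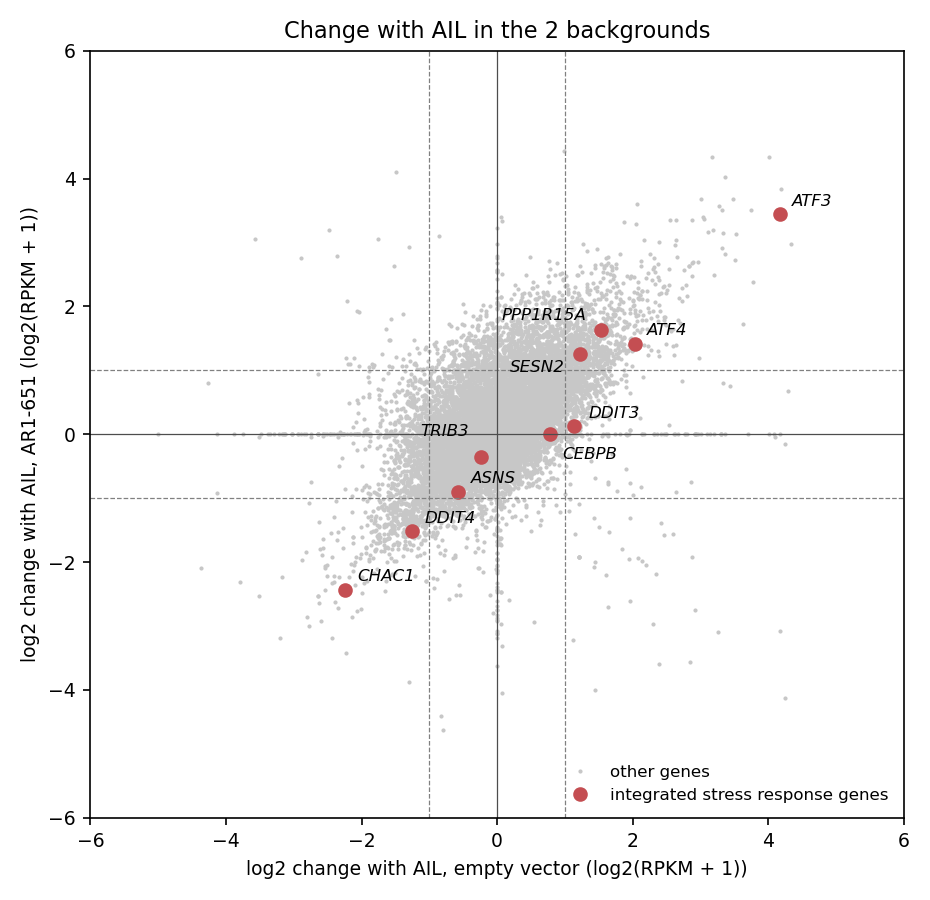
Log2 change with AIL in the libraries labelled AR1-651 (vertical) against the change with empty vector (horizontal), as differences of log2(RPKM + 1), for the 10 members (red) and the other genes (grey), with dashed lines at 2-fold and 2 genes outside the axes. ATF3 lies at 4.17 and 3.44, CHAC1 at -2.25 and -2.43, and DDIT3 at 1.13 and 0.13.

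To see how far the plasmid moved these genes, the libraries labelled AR1-651 were compared with empty vector, a direction that rests on the labels alone. These comparisons share libraries with those of AIL above and are not independent of them. Without AIL, 1 member was at least 2-fold higher in the library labelled AR1-651 (DDIT3) and 1 at least 2-fold lower (SESN2), against 4.01% and 11.6% of all genes. With AIL, 0 members were higher and 1 was lower (SESN2 again), against 1.46% and 3.53%. The median log2 change of the members was 0.44 without AIL and 0.09 with AIL, beside -0.30 and -0.03 for all genes. Median-ratio scaling moved the all-gene median from -0.30 to -0.09 without AIL, and that for AIL in the libraries labelled AR1-651 from 0.13 to -0.03. With it, 7.29% of genes were higher and 5.59% lower by 2-fold or more in the library labelled AR1-651 without AIL, and 10.82% were higher and 8.62% lower with AIL in the libraries labelled AR1-651. With the dependence on transcript length and GC content removed, these shares were 4.72% and 3.79%, and 8.22% and 7.48%. With ribosomal protein genes left out of the scaling, 2.8% of genes were higher and 17.09% lower in the library labelled AR1-651 without AIL, and the all-gene median was -0.43.

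The regulators ATF3, ATF4 and DDIT3 were higher in the library labelled AR1-651 than with empty vector when AIL was absent, and the ratios were nearer to 1 when it was present. ATF3 was 1.95 times higher in RPKM without AIL (counting interval 1.45 to 2.64) and 1.1 times higher with it (1.02 to 1.18). For ATF4 the ratios were 1.59 (1.49 to 1.69) and 1.03 (0.998 to 1.07), the latter an interval that includes 1. DDIT3 had ratios of 2.91 (2.4 to 3.53) and 1.43 (1.23 to 1.65). Its log2 change of 1.51 without AIL was the rank 158 rise among 14626 genes. CEBPB was 1.49 times higher without AIL (1.29 to 1.73) and stood at a ratio of 0.854 (0.751 to 0.969) with it, and that last direction turned around under the removal of the length and GC trend (log2 change -0.22 as deposited and 0.28 corrected).

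SESN2, PPP1R15A and TRIB3 were lower in the libraries labelled AR1-651 in both states. For SESN2 the level with empty vector was 2.36 times higher without AIL (counting interval 1.89 to 3.0) and 2.18 times higher with it (1.89 to 2.52). PPP1R15A had ratios of 2.11 (1.32 to 3.36) and 1.74 (1.37 to 2.2) in the same direction. TRIB3 in the libraries labelled AR1-651 was at 0.6 of its empty vector level without AIL (0.493 to 0.736) and at 0.549 with it (0.437 to 0.685). Changes across all genes in these comparisons moved with transcript length and GC content, and removing that trend made the log2 changes of these genes smaller. That of SESN2 went from -1.11 to -0.59 without AIL, and from -1.08 to -0.59 with it. For PPP1R15A it went from -0.83 to -0.53 and from -0.74 to -0.39, and for TRIB3 from -0.70 to -0.41 and from -0.81 to -0.40.

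CHAC1, ASNS and DDIT4 differed less between the plasmids. ASNS was 1.41 times higher in RPKM in the library labelled AR1-651 without AIL (counting interval 1.24 to 1.59), and DDIT4 1.33 times higher (1.21 to 1.46). With AIL the intervals included 1 for both, at 0.952 to 1.31 for ASNS, whose log2 change of 0.15 turned to -0.09 with the length and GC trend removed, and 0.958 to 1.3 for DDIT4. For CHAC1 the intervals included 1 both without AIL (0.837 to 2.04) and with it (0.243 to 18.7).

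**Figure D3:**
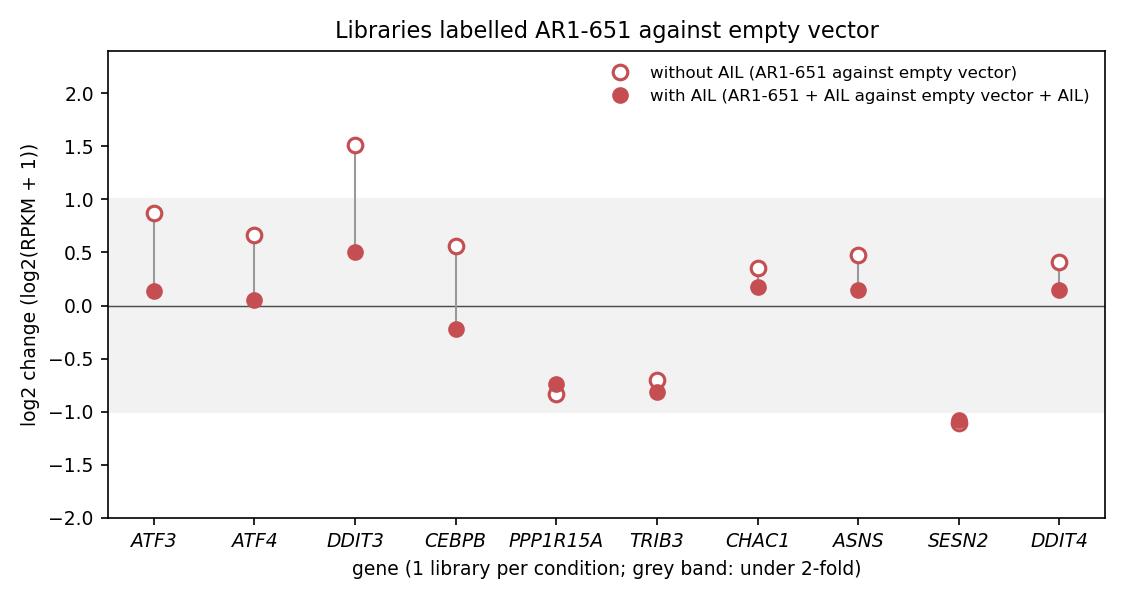
Log2 change of each member between the libraries labelled AR1-651 and those with empty vector, as differences of log2(RPKM + 1), without AIL (open) and with AIL (filled), with the range under 2-fold shaded. DDIT3 goes from 1.51 to 0.50, and SESN2 stays at -1.11 and -1.08.

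The change with AIL in the libraries labelled AR1-651 minus that with empty vector, in log2 units, was -1.0 for DDIT3, -0.78 for CEBPB, -0.73 for ATF3 and -0.62 for ATF4. It was between -0.33 and 0.09 for the other 6 members. For these 4 genes the library labelled AR1-651 without AIL already stood above empty vector, as given above. So did CHAC1, DDIT4 and ASNS among the others, by smaller log2 changes (0.35, 0.41 and 0.48). The difference equals the change between the plasmids with AIL minus that without it, so it restates the same values. Over the 10 members the median of this difference of AIL changes was -0.29, beside 0.14 for all genes. It was not tested, since each condition is 1 library.

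The spread over the 4 libraries set the members apart. The highest RPKM was 23.4 times the lowest for CHAC1 and 22.5 times for ATF3, but 1.74 times for CEBPB, 2.11 times for ASNS and 2.16 times for TRIB3. Among 14563 genes with a symbol, the pattern nearest to that of ATF3 was that of STX19, a syntaxin, at a distance of 0.293, where the median gene lay at 3.89. STX19 had 2.5, 63.2, 5.04 and 84.9 RPKM in the order of the libraries above. The next were the linker histone gene H1-4 (0.568), the metallothionein gene MT1F (0.571), the chemokine gene CCL20 (0.62) and the microRNA gene MIR4523 (0.692). MT1F belongs to a family of closely similar genes that can share reads, and it and MIR4523 are listed at 0 with empty vector. The genes nearest to TRIB3 were CTDSP1 (0.0319), RHBDF1 (0.047), SEC14L1 (0.0633), ABCC10 (0.0654) and PKMYT1 (0.0705), with a median of 0.992 over all genes. These likenesses rest on 4 libraries.

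The rest of the pathway was read from 10 lists with 100 genes, of which 98 were found and 95 reached an RPKM of 1 in 1 library or more. With AIL, 13 of the 95 (13.7%) were at least 2-fold higher and 17 (17.9%) lower with empty vector, against 9.53% and 9.03% of all genes. In the libraries labelled AR1-651, 9 (9.47%) were higher and 21 (22.1%) lower, against 14.9% and 5.74% of all genes. In both comparisons 7 (7.37%) were higher and 12 (12.6%) lower, against 5.67% and 2.93%. Between the plasmids without AIL, 6 (6.32%) were higher and 6 (6.32%) lower in the library labelled AR1-651, against 4.01% and 11.6%, and with AIL 0 were higher or lower, against 1.46% and 3.53%.

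Upstream of ATF4, none of the 4 eIF2alpha kinase genes was at least 2-fold changed in both AIL comparisons on the log2(RPKM + 1) scale. EIF2AK3 (PERK), the kinase that senses unfolded protein in the endoplasmic reticulum (ER), was nearest to that, with 12.6 RPKM with empty vector, 5.55 with empty vector + AIL, 7.1 in the library labelled AR1-651 and 3.09 in the one labelled AR1-651 + AIL. Its log2 changes with AIL were -1.05 with empty vector and -0.99 in the libraries labelled AR1-651. Without the added 1 RPKM its ratios of 0.442 and 0.435 were past 2-fold in both. Of 8 genes of eIF2 and of its exchange factor eIF2B, 4 were at least 2-fold higher with AIL beside empty vector (EIF2S1, EIF2B2, EIF2B4 and EIF2B5), where 9.53% of all genes were, and 0 in the libraries labelled AR1-651, where 14.9% were. The median log2 changes of that list were 0.62 and 0.52, and EIF2S3, singled out after its values were seen, was below 0 in both (-0.94 and -0.33). With AIL and empty vector, 9.53% of all genes were at least 2-fold higher and 9.03% lower. In the libraries labelled AR1-651 these shares were 14.9% and 5.74%. Beside them, none of the 5 genes of the next list passed 2-fold on the log2(RPKM + 1) scale. They were PPP1R15B, PPP1CA, PPP1CB and PPP1CC of the eIF2alpha phosphatase, and DNAJC3. DNAJC3, an ER co-chaperone that inhibits eIF2alpha kinases, came nearest, with 11.1 RPKM with empty vector, 8.03 with empty vector + AIL, 19.7 in the library labelled AR1-651 and 9.36 in the one labelled AR1-651 + AIL, and the RPKM ratio of 0.475 in the last pair was past 2-fold without the added 1 RPKM. PPP1R15B, the constitutive counterpart of PPP1R15A, had log2 changes of 0.67 and 0.73.

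Relatives of the members had 6 of 15 at least 2-fold higher with AIL beside empty vector, against 9.53% of all genes. In the libraries labelled AR1-651 there were 5 of 15, SESN3 among them, against 14.9%. Lower by that much were 1 with empty vector (SESN3), against 9.03%, and 0 in the libraries labelled AR1-651, against 5.74%. JUN and FOS, subunits of AP-1 that pair with ATF factors, had the widest changes of that list. FOS had 0.73, 16.2, 0.59 and 10.9 RPKM and JUN 35.6, 367, 38.0 and 346 RPKM, in the order empty vector, empty vector + AIL, labelled AR1-651 and labelled AR1-651 + AIL. In both genes the 2 libraries with AIL stood well above the 2 without. CEBPG, a C/EBP family partner of ATF4, had log2 changes of 1.02 and 1.07.

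Genes for amino acid supply, the classical output of ATF4, were mostly lower or little changed with AIL. Of 8 amino acid transporter genes, 6 were at least 2-fold lower with empty vector, against 9.03% of all genes. In the libraries labelled AR1-651 there were 4, against 5.74%. The list medians were -1.56 and -0.98, beside -0.02 and 0.13 for all genes. SLC7A11, the cystine carrier of system xc-, had 12.9, 1.61, 8.2 and 2.77 RPKM in the same order of libraries. Its partner chain SLC3A2 went the opposite way, with 73.6, 271, 65.8 and 210.4 RPKM. The log2 changes with AIL were -1.67 and -1.73 for the arginine and lysine carrier SLC7A1, -1.81 and -2.18 for the glutamine carrier SLC1A5, and -2.44 and -1.55 for the glycine carrier SLC6A9.

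None of 6 serine, glycine and one-carbon enzyme genes passed 2-fold in either AIL comparison, and their medians were -0.45 and -0.56. In the proline, alanine, aspartate and cysteine list, GPT2, which makes alanine, was lower in both (log2 changes of -1.10 and -1.66). Of 12 aminoacyl-tRNA synthetase genes, 1 was at least 2-fold lower with empty vector (GARS1), a count near the share of 9.03% of all genes. In the libraries labelled AR1-651 there were 2 (GARS1 and AARS1), against 5.74%. The list medians were -0.16 and 0.05, beside -0.02 and 0.13 for all genes.

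Of 17 other genes known as targets of ATF4 or CHOP, 2 were at least 2-fold higher and 2 lower with AIL beside empty vector, against 9.53% and 9.03% of all genes. In the libraries labelled AR1-651, 3 were higher and 2 lower, against 14.9% and 5.74%. Higher in both comparisons were TXNIP, which binds thioredoxin, and BBC3 (PUMA), a BH3-only inducer of apoptosis. Of all genes, 5.67% were higher in both and 2.93% lower in both. TXNIP had 134, 1506, 118 and 1529 RPKM, and BBC3 had 9.57, 53.8, 5.18 and 32.9 RPKM. Both genes were high in each library with AIL. HERPUD1, a gene of ER-associated degradation, was lower in both, with 50.4, 17.0, 73.5 and 15.5 RPKM. The list medians were -0.29 with empty vector and 0.07 in the libraries labelled AR1-651, beside -0.02 and 0.13 for all genes.

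The list of the ER chaperone arm holds targets of ATF6 and XBP1, which act beside PERK in ER stress, and the genes of those factors themselves. At least 2-fold lower with AIL were 5 of 14 with empty vector, against 9.03% of all genes, and 11 of 14 in the libraries labelled AR1-651, against 5.74%, with medians of -0.79 and -1.28. None was at least 2-fold higher, and ATF6, singled out after its values were seen, was above 0 in both (0.18 and 0.39). HSPA5 (BiP), the main ER chaperone, had 268, 84.7, 428 and 77.6 RPKM, and the disulfide isomerase PDIA4 had 135, 28.0, 346 and 31.5 RPKM, so that both were highest in the library labelled AR1-651 and low in both libraries with AIL. In the library labelled AR1-651 without AIL, 5 of the 14 were at least 2-fold higher than with empty vector, against 4.01% of all genes.

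**Figure D4:**
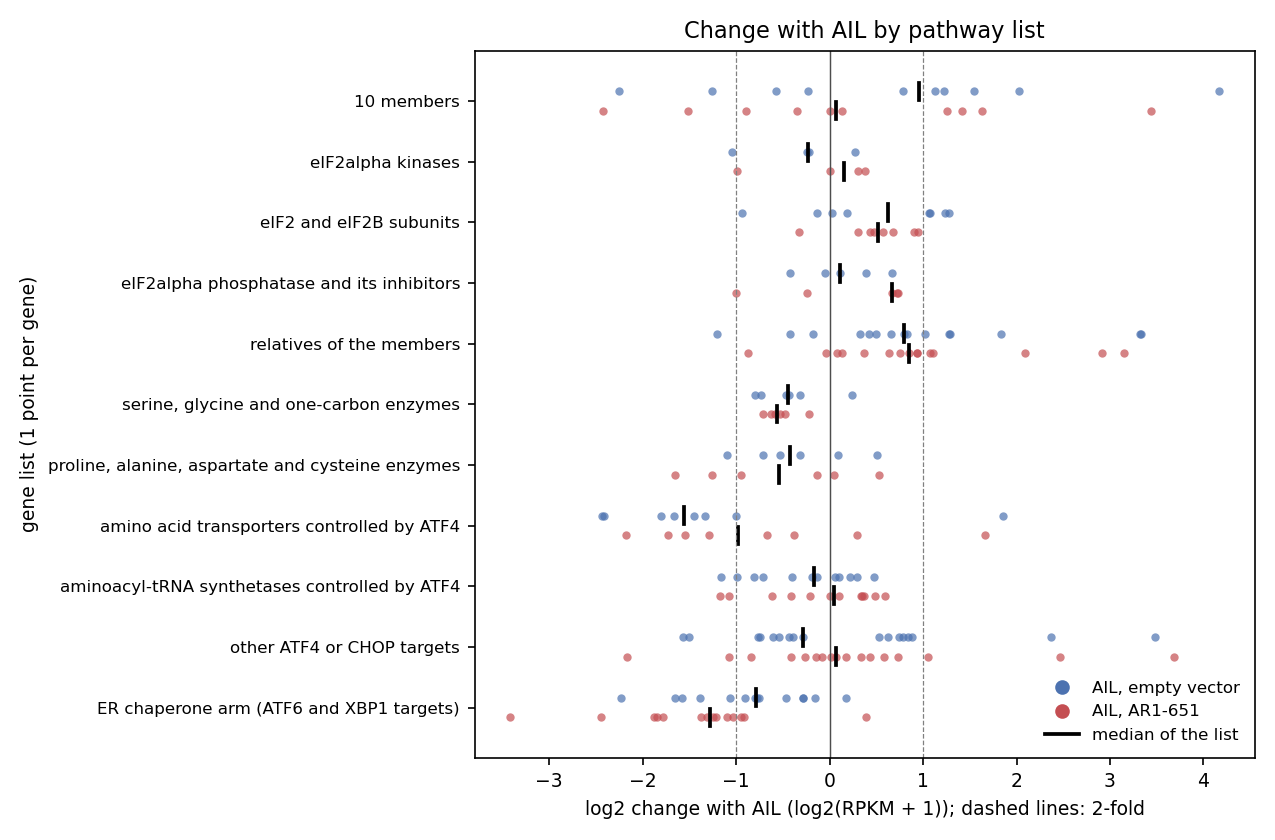
Log2 change with AIL, as differences of log2(RPKM + 1), of every gene that reached an RPKM of 1 in 1 library or more among the 10 members and the 10 pathway lists, with empty vector (blue) and in the libraries labelled AR1-651 (red), black bars for list medians and dashed lines at 2-fold. The amino acid transporters have medians of -1.56 and -0.98 and the ER chaperones of -0.79 and -1.28, while the relatives of the members have 0.80 and 0.85.

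On the same scale, GAPDH, a common reference gene, had log2 changes with AIL of -0.14 and -0.31, and ACTB had 0.47 and 0.31. Between the plasmids ACTB differed more, by -0.74 without AIL and -0.91 with it.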

How the data were processed

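LNCaP RNA was sequenced as 4 libraries, grouped by their labels. The labels name both a stranded total RNA kit with rRNA removal and enrichment on oligo(dT) beads. Per the labels' processing notes the submitters used BWA 0.7.10-r789 and the hg19 build. The counting tool, annotation and strand setting are not given in the sources used here. The authors deposited RPKM per gene, rounded to 2 decimals. Reads taken by a few abundant genes lower the RPKM of all others in that library.

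Entrez Gene identifiers were given symbols through a RefSeq table, which matched 19703 genes. Changes were differences of log2(RPKM + 1). Genes that reached an RPKM of 1 in 1 library or more were kept. Since a single read is worth a fixed RPKM for a given length, the total of each library was taken from genes with 1 transcript, an RPKM of at least 0.1 and a length of at least 300 bases. Between 165 and 223 genes per library lay within 5% of 1 read, and RPKM times length summed to 102 to 107% of the total found. Read numbers use median transcript lengths of GENCODE 29 (CHAC1 by symbol) and are approximate. Intervals are exact (Clopper-Pearson) at 95%, for the share of a gene's reads in one of the libraries compared. They assume independent reads and cover counting error only.

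The members, lists and tests were chosen with earlier results of these data known. The genes named were all members, list genes at least 2-fold changed the same way by AIL in both comparisons (otherwise the 3 with the largest mean change, and all of lists of up to 5), the 5 genes nearest to ATF3 and to TRIB3, and KLK3, ACTB and GAPDH. EIF2B4, EIF2S3, AARS1, ATF6 and SESN3 fall outside this rule and were named after their values were seen. Some genes of this rule are not reported here. Alternatives were median-ratio scaling, a pseudocount of 0.1, an RPKM of at least 5 or no filter, 1.5-fold as the threshold, scaling without the 85 ribosomal protein genes, correction for length and GC content (polynomial of degree 3, 14183 genes), and, added after seeing the data, no pseudocount. The read totals, the 2-fold calls and the median-ratio factors were tested on simulated data, and the other calculations were not. Python 3.11.15, NumPy 2.4.6, pandas 2.3.3 and SciPy 1.17.1 were used.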

Additional observations from a re-analysis of the deposited data

Results flagged for a closer look

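The effect of AIL ran in opposite directions with empty vector and in the libraries labelled AR1-651 for 5 of the genes named, counting only changes that are not 0 at 2 decimals, which leaves out CEBPB (0.78 with empty vector, and 44.89 against 44.83 RPKM in the libraries labelled AR1-651). None of these differences was tested, since each condition is 1 library. The share of all genes with opposite directions was not counted, so the 5 cannot be read against it. Some of the changes lie close to 0, as for PPP1CB and KLK3 with empty vector. SESN3, singled out after its values were seen, had log2 changes of -1.21 and 1.11, a difference of 2.31. KLK3 had 0.08 and -1.31 (difference -1.39), PPP1CB had -0.05 and 0.72 (0.76), EIF2AK2 had -0.22 and 0.38 (0.60), and PPP1CA had 0.11 and -0.24 (-0.36).

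The difference between the library labelled AR1-651 and empty vector changed direction between the libraries without and with AIL for 12 further genes, again untested and without a count over all genes. CEBPB, the only member among them, went from 0.56 without AIL to -0.22 with it, a difference of -0.78. SLC7A11 had log2 changes of -0.59 and 0.53 (difference 1.12), HSPA5 0.67 and -0.12 (-0.80), HYOU1 0.51 and -0.26 (-0.78), HERPUD1 0.54 and -0.12 (-0.66), and GPT2 0.24 and -0.32 (-0.56). The other differences were smaller, at -0.37 for SLC1A5, 0.28 for PPP1CC, 0.27 for PSPH, 0.20 for TXNIP, -0.17 for JUN and 0.13 for PSAT1. ATF6, named outside the rule and left out of the 12, also changed direction, with -0.04 and 0.17 (difference 0.21).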

How the results depend on the processing

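Counts of members at least 2-fold changed were 5 higher and 2 lower for AIL with empty vector, and 4 higher and 2 lower for AIL in the libraries labelled AR1-651, and each stayed within 1.5 times of that under the 8 alternatives. The counts for the library labelled AR1-651 against empty vector without AIL, 1 higher and 1 lower, were less stable. The lower count became 2 with a pseudocount of 0.1 and with no pseudocount (PPP1R15A at -1.04 and -1.08), 0 with median-ratio scaling (SESN2 at -0.88) and with the length and GC trend removed (SESN2 at -0.59), and 3 at 1.5-fold. The higher count became 2 with median-ratio scaling (ATF3 at 1.12) and 3 at 1.5-fold. With AIL, the lower count of 1 became 3 at 1.5-fold and 0 with the trend removed. The difference of the AIL changes of DDIT3 went from -1.0 to -0.86 with the trend removed or ribosomal protein genes left out. The cause of these moves was not tested. The log2 change of ATF3 with AIL ranged from 4.05 to 4.36 with empty vector and from 3.23 to 3.53 in the libraries labelled AR1-651, and that of ATF4 from 1.93 to 2.04 and from 1.2 to 1.46. Signs turned for DDIT3 and CEBPB with AIL in the libraries labelled AR1-651, for ASNS and CEBPB between the plasmids with AIL, and for the members' median with AIL in the libraries labelled AR1-651 (0.06 to -0.15). They also turned for the differences of the AIL changes of CHAC1 (-0.18, up to 0.23), TRIB3 (-0.11, up to 0.03), PPP1R15A (0.09, down to -0.06) and SESN2 (0.04, down to -0.14).

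No paired analysis was possible because each condition has 1 library. For the same reason no library could be left out. With 4730000 to 5590000 reads per library the ratios of CHAC1 rest on 2.0 and 3.6 reads with AIL, and only large changes can be read for a gene that low.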
